A study of Triticum aestivum with 6 samples.

Results

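Transcript sequences whose level peaked in the starchy endosperm of wheat grain at 9 days post anthesis (DPA) were described over 6 RNA-seq libraries. The members were chosen by their deposited values: a level of at least 20 RPKM (reads scaled to sequence length and to the library total) and at least 50 reads in the 9 DPA starchy endosperm, and a level there at least 4 times that of each of the 5 other libraries. Of 221925 sequences, 233 met this rule. The libraries were made from bread wheat (Triticum aestivum) of the cultivar Banks, with no genetic change or treatment. Aleurone and starchy endosperm were dissected from grains at 6, 9 and 14 DPA, and each of the 6 preparations pooled at least 5 seeds taken from 3 spikes on 3 plants. Each tissue and stage has 1 library, so no value has a replicate error and no p-value is given. Intervals cover the error of counting alone. Copies made by PCR could not be recognised, so the intervals can be too narrow even for that error.

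The endosperm of cereals differentiates into an outer aleurone, whose cells stay alive in the ripe grain and secrete enzymes at germination, and an inner starchy endosperm, whose cells fill with starch and storage proteins and die as the grain ripens. In the first weeks after anthesis the endosperm passes from cell division to grain filling, during which starch and gluten proteins accumulate in the starchy endosperm.

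None (0) of the identifiers matched the reference gene table, and the files do not pair them with names. The members are therefore named by identifier, no role is given to any of them, and the tissue labels could not be checked against marker genes. Several sequences can stand for the same gene, so 233 is not a number of genes. The 9 DPA libraries were the shallowest, with 4549034 reads in aleurone and 4104682 in starchy endosperm, against 27150859 to 37911327 in the others. Carry-over between the dissected tissues was not tested. In pooled tissue, a lower share of the cells that hold a transcript and less of it per cell cannot be told apart.

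The 233 members held 1.56% of the reads of the 9 DPA starchy endosperm (exact 95% interval 1.54% to 1.57%). In the other libraries they held 0.0959% of reads in 6 DPA aleurone, 0.132% in 9 DPA aleurone, 0.123% in 14 DPA aleurone, 0.155% in 6 DPA starchy endosperm and 0.204% in 14 DPA starchy endosperm. The median level of a member was 50.1 RPKM at 9 DPA in starchy endosperm, with a range of 20.1 to 830.1 RPKM. In the same tissue the median was 4.13 RPKM at 6 DPA and 5.51 RPKM at 14 DPA. In aleurone it was 2.37, 3.90 and 3.28 RPKM at the 3 stages. These values chose the members and are given as a description. The members were thus mostly sequences of moderate level: 55 reached 100 RPKM at 9 DPA and 20 reached 200 RPKM, and the 10 with the most reads held 28.6% of the members' reads.

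**Figure D1:**
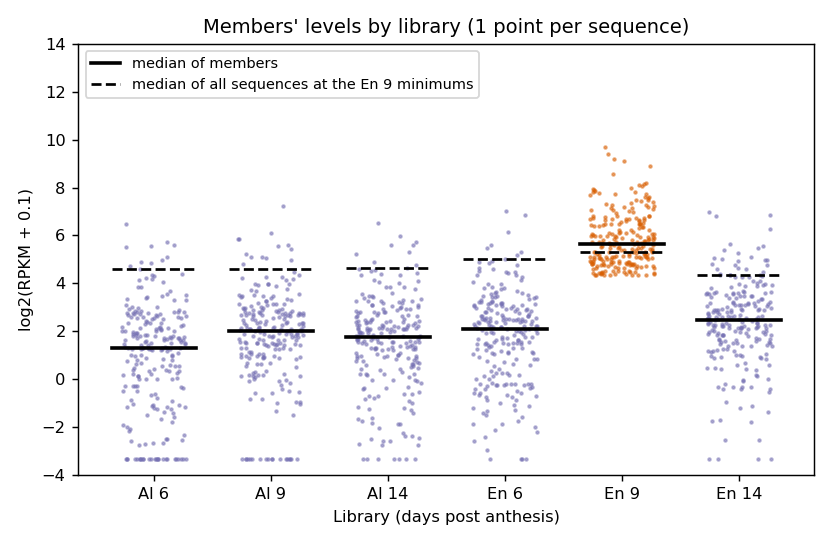
Level of the 233 members in each library, as log2(RPKM + 0.1), with 1 point per sequence (Al, aleurone; En, starchy endosperm; number, DPA). Solid lines are the members' medians, 50.1 RPKM in En 9 and 2.37 to 5.51 RPKM elsewhere, and broken lines are the medians of the 9826 sequences with at least 20 RPKM and 50 reads in En 9.

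The rule was met by few of the sequences that were expressed at 9 DPA. Of the 221925 sequences, 9826 had at least 20 RPKM and 50 reads in 9 DPA starchy endosperm, and these serve as the background below. In 3729 of them the 9 DPA starchy endosperm was the highest library. Its level was at least 4 times that of 6, 9 and 14 DPA aleurone in 27.9%, 26.8% and 22.5% of the background. It was at least 4 times that of 6 DPA starchy endosperm in 12.8% and of 14 DPA starchy endosperm in 21.9%. All 5 conditions together left 2.37%, the 233 members. The median member stood 6.06 times above its highest other library. There were 66 members at least 8 times above it and 19 at least 16 times, also with other libraries' counts set at 3 reads or more. On that footing 2 members, TC391918 and TC409557, were at least 50 times above it, while 73 of the members with reads elsewhere lay between 4 and 5 times.

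Away from the peak, the members differed in shape. In 122 of 233 the highest of the 5 other libraries was below 2 times their median, which is called capped below. In 64 it was at least 4 times their median, called led, and 45 lay between. The remaining 2 had no read in any other library. These classes were drawn after the values were seen, limit only the highest of the 5 and serve to order the description. The capped class had a median of 47.7 RPKM at 9 DPA in starchy endosperm over a level of 4.13 to 6.13 RPKM in the other 5 libraries. Of its 122 sequences, 111 had at least 1 RPKM in all 5 and 4 had at most 3 reads in some of them, and in 35 the lowest of the 5 was at or below 0.25 of the highest. The led class had a similar median at the peak, 51.2 RPKM, over 0.143 RPKM in 6 DPA aleurone, 1.76 in 9 DPA aleurone, 0.623 in 14 DPA aleurone, 0.762 in 6 DPA starchy endosperm and 3.91 in 14 DPA starchy endosperm. In the led class the second highest library was 14 DPA starchy endosperm for 40 sequences and 9 DPA aleurone for 22, and 14 DPA aleurone and 6 DPA starchy endosperm for 1 each.

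**Figure D2:**
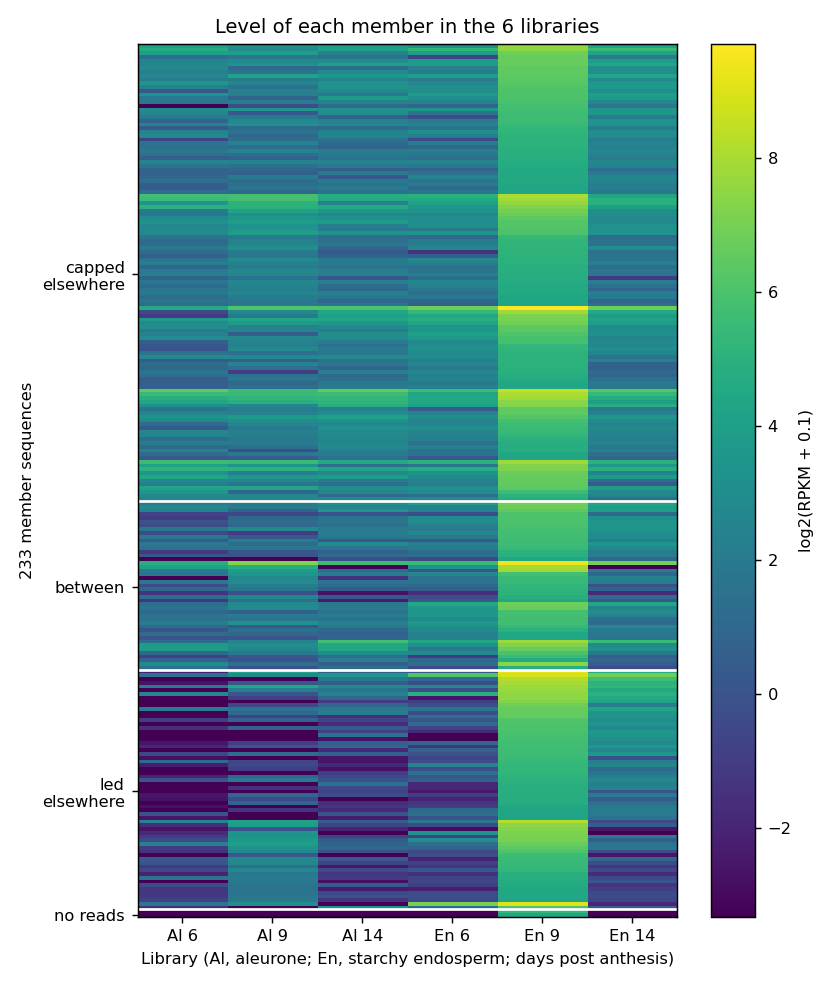
Levels of all 233 members, 1 row per sequence, as log2(RPKM + 0.1) in the 6 libraries. Rows are divided into the 122 capped elsewhere, the 45 between, the 64 led elsewhere and the 2 with no reads elsewhere, and within each are ordered by second highest library; dark cells, most frequent in the led class, are levels near 0.

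The first pattern of the led class was a peak at 9 DPA followed by a lower level at 14 DPA in the same tissue. This form follows from the rule and from sorting by 14 DPA starchy endosperm as second library. In these 40 sequences the median starchy endosperm level was 0.775 RPKM at 6 DPA, 51.6 at 9 DPA and 7.07 at 14 DPA. Aleurone stayed low, with medians of 0.0510, 0.517 and 0.685 RPKM. At 6 DPA, 31 of the 40 had at most 3 reads in aleurone and 6 had at most 3 in starchy endosperm. The lowest total count in 14 DPA starchy endosperm was 23 reads. These totals include shared reads to unlike degrees: CA714317 had 0 unique among 147 reads there, while all 534 of CK197710 were unique. At the peak the median unique share of the 40 was 35.6%, and 12 of them had under 10 unique reads.

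BQ609570 (610 bases) was the most abundant of these. Its starchy endosperm levels were 1.23 RPKM at 6 DPA, 591 at 9 DPA and 27.5 at 14 DPA. Its aleurone levels were 0.121, 19.1 and 1.47 RPKM at the same stages. On total reads BQ609570 was thus highest at 9 DPA in both tissues, with the starchy endosperm far above aleurone. Of its 1481 reads at the peak, 86 were unique. None of its 53 reads in 9 DPA aleurone was unique, so its aleurone maximum rested on shared reads. TC371388 (3175 bases, the longest member) had more reads than any other member. In starchy endosperm its level went from 71.6 RPKM at 6 DPA to 483 at 9 DPA and 116 at 14 DPA, from 6954, 6298 and 13845 reads. In aleurone it had 2.61, 6.99 and 10.96 RPKM. TC371388 was thus higher in starchy endosperm than in aleurone at all 3 stages, and its ratio of 4.16 to 14 DPA was close to the minimum of the rule. On its 2805 unique reads that ratio was 2.50 (exact 95% interval 2.40 to 2.60), below the minimum. CK197710 (436 bases) had 29.6, 188 and 32.7 RPKM over the 3 stages of starchy endosperm, and in aleurone 6.08, 1.01 and 5.20 RPKM. All of its reads were unique in all 6 libraries, 337 of them at the peak.

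CV065824 (702 bases) was a low and sharply limited sequence. It had 133 reads at the peak, all unique, which is 46.2 RPKM (exact 95% interval 38.6 to 54.7). It had 12 reads in 6 DPA and 23 in 14 DPA starchy endosperm, and 1, 0 and 2 reads in aleurone at 6, 9 and 14 DPA. Its peak was 52.8 times its highest other library. TC426973 (763 bases) had a similar form at a lower level, with 29.4 RPKM from 92 reads at the peak, 0.0860 RPKM at 6 DPA and 0.909 at 14 DPA in starchy endosperm, and 0, 0 and 0.519 RPKM in aleurone.

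The second pattern of the led class was, on total reads, a peak at 9 DPA in both tissues, with the starchy endosperm higher. This form follows from the rule and from sorting by 9 DPA aleurone as second library. In these 22 sequences the median level at 9 DPA was 44.2 RPKM in starchy endosperm, against 5.30 RPKM in aleurone. In starchy endosperm it was 0.612 RPKM at 6 DPA and 0.679 at 14 DPA, and in aleurone 0.367 and 0.545. The aleurone level rested on few reads, a median of 15.5 and a lowest count of 2. Shared reads were frequent: the median unique share at the peak was 2.19%, and 15 of the 22 had under 10 unique reads at the peak.

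TC391918 (1121 bases) had the largest ratio among members with reads elsewhere. It had 154 RPKM from 710 reads in 9 DPA starchy endosperm, and 0.980 RPKM from 5 reads in 9 DPA aleurone. In the 4 libraries of 6 and 14 DPA it had 1 to 6 reads, at most 0.141 RPKM. The peak was 157 times the 9 DPA aleurone, and the lowest of its exact 95% limits against the 5 other libraries was 67.1. Of its peak reads 140 were unique, against 1 unique read in 9 DPA aleurone, a ratio of 166 with an exact 95% interval of 29.4 to 6617. CJ812418 (343 bases), named after its values were seen as the most abundant of the 22, had 293 RPKM at the peak and 17.3 RPKM in 9 DPA aleurone. At 6 DPA it had 6.23 RPKM in aleurone and 3.72 in starchy endosperm, and at 14 DPA 1.46 and 0.700 RPKM. Of its 412 reads at the peak, 38 were unique, and none of its 27 reads in 9 DPA aleurone was.

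The only member of the led class with a lead in 6 DPA starchy endosperm was TC415795 (574 bases). In starchy endosperm it had 130.1 RPKM at 6 DPA, 547 at 9 DPA and 0.186 at 14 DPA, from 2284, 1289 and 4 reads. In aleurone it had 3.34 and 8.81 RPKM at 6 and 9 DPA and no read at 14 DPA. TC415795 was thus near absent at 14 DPA in both tissues after a peak at 9 DPA. Among the other members, 5 of 233 had at most 3 reads in both 14 DPA libraries, with no count over the background to set beside this. These were TC436791, CD898757, CA716679, TC409557 and TC406214, named after their values were seen. TC436791 had 17.7 and 27.7 RPKM in aleurone and 9.91 and 248 RPKM in starchy endosperm at 6 and 9 DPA, and no read in either tissue at 14 DPA. CD898757 had 0.191 and 10.6 RPKM in aleurone and 9.98 and 139 RPKM in starchy endosperm, and no read at 14 DPA. At most 3 reads in both 6 DPA libraries were found for 10 members, again with no count over the background.

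TC409557 and TC406214 had reads in no other library. TC409557 (1025 bases) had 166 reads at the peak, 164 of them unique, which is 39.5 RPKM (exact 95% interval 33.7 to 45.9). With 3 reads set for each other library, it was 61.3-fold higher than in the highest of them. The lowest of its exact 95% lower limits against the 5 other libraries was 49.3. TC406214 (737 bases) had 61 reads, 22 of them unique, which is 20.2 RPKM, and was 22.5-fold higher with 3 reads set elsewhere. In both cases this ratio was set by the shallow 9 DPA aleurone library.

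**Figure D3:**
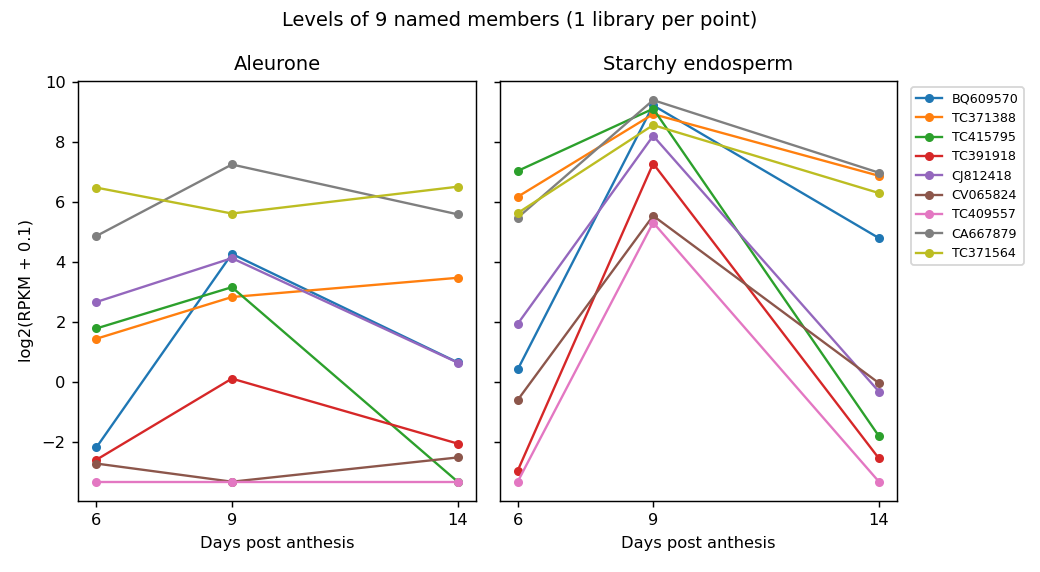
Levels of 9 named members as log2(RPKM + 0.1) against days post anthesis in aleurone and starchy endosperm, with 1 library per point. On total reads BQ609570 and CJ812418 were highest at 9 DPA in both tissues, but neither had a unique read in 9 DPA aleurone. TC415795 fell to 0.186 RPKM at 14 DPA, and TC371564 stayed between 48.6 and 90.4 RPKM outside the peak. TC409557 lies at 0 in 5 of 6 libraries.

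The capped class held several of the most abundant members. CA641270 (560 bases) had the highest level of all, 830.1 RPKM at the peak. In starchy endosperm it had 114.7 RPKM at 6 DPA and 112.6 at 14 DPA, and in aleurone 24.4, 68.7 and 63.4 RPKM at 6, 9 and 14 DPA. TC371564 (1166 bases) had 375 RPKM at the peak, 49.1 and 78.1 RPKM in starchy endosperm at 6 and 14 DPA, and 88.5, 48.6 and 90.4 RPKM in aleurone. Both were thus abundant in every library and stood out in a single one on total reads. Their peaks were not found on unique reads. CA641270 had 161 unique reads among 1908 at the peak, and its level on unique reads was 166 RPKM, against 169 at 6 DPA and 162 at 14 DPA in starchy endosperm. TC371564 had 67 unique reads among 1796, and 33.3 RPKM on unique reads against 33.4 at 14 DPA in the same tissue.

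CA667879 (527 bases), of the class between, was the second most abundant member and the highest of those with 9 DPA aleurone as second library. It had 44.1, 668 and 124.9 RPKM over the stages of starchy endosperm, and in aleurone 28.9, 151 and 47.7 RPKM. It was thus highest at 9 DPA in both tissues. Here 1050 of 1444 peak reads were unique, and the ratio was 4.42 on total reads and 4.59 on unique reads. CA600269 (362 bases) was the highest of the 13 members with 6 DPA aleurone as second library, with 48.2, 46.8 and 23.3 RPKM in aleurone, while starchy endosperm had 32.7, 221 and 32.9 RPKM. CD930718 (158 bases, the shortest member) had 126 RPKM from 82 reads at the peak, 14.5 and 20.3 RPKM at 6 and 14 DPA in starchy endosperm, and 3.96, 4.17 and 9.02 RPKM in aleurone.

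Over all 233 members, the second highest library was 14 DPA starchy endosperm for 96, 9 DPA aleurone for 63, 6 DPA starchy endosperm for 33, 14 DPA aleurone for 26 and 6 DPA aleurone for 13. The 2 without other reads had none. These second libraries are on library totals and were not recounted with other scalings or over the background. The level in starchy endosperm was higher at 14 than at 6 DPA in 155 of 233 members (66.5%) and in 32.9% of the background. With TMM these shares were 83.7% (195 members) and 50.4%.

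Reads that match several sequences entered the total counts, and the members rested on them more than the background did. The unique share of a member's reads at the peak had a median of 26.0%, against 39.6% over the background. No unique read at the peak was found for 34 members (14.6%), against 1.52% of the background, and fewer than 10 for 71 members (30.5%), against 7.97%. Of the 34, 17 had no unique read in any library. The largest of the 34 was CK168909 (617 bases), with 148 RPKM from 376 reads at the peak, none unique, 3.13 and 12.3 RPKM at 6 and 14 DPA in starchy endosperm, and 18.8, 11.8 and 2.48 RPKM in aleurone. At the other end, all reads at the peak were unique for 12 members. The members' reads were 34.1% unique at the peak, 52.0% in 14 DPA starchy endosperm and 53.3% in 6 DPA starchy endosperm, while the whole libraries were 42.1%, 42.8% and 52.9% unique. In aleurone the members' reads were 45.0%, 36.2% and 49.0% unique at 6, 9 and 14 DPA. A low unique share therefore went together with membership, and with the peak library.

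On unique reads alone the peak could be read for the members that had enough of them. Of 162 members with at least 10 unique reads in 9 DPA starchy endosperm, 160 were highest there on unique reads, all but CA641270 and TC371564. In 107 of the 162 the unique level was at least 4 times that of each other library. Of the 106 with at least 50 unique reads, 104 were highest there and 80 met the 4-fold condition, with a median ratio of 5.71. Unique reads are part of the total reads that chose the members, and these counts are a description. The filter was on unique reads at the peak itself, so it favoured members that peak on unique reads. The limit of 10 left out 37 members with 1 to 9 unique reads there and 34 with none. Some of the 37, such as TC400433, were not highest there on unique reads.

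**Figure D4:**
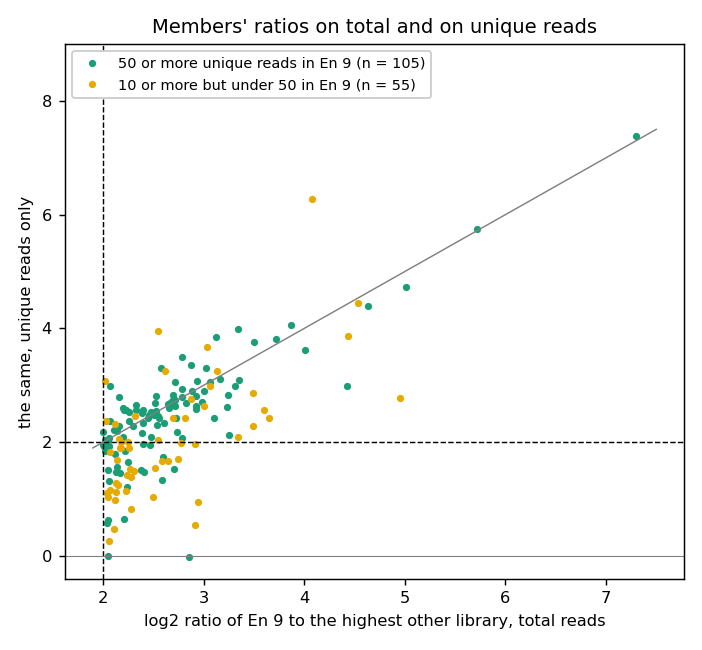
Ratio of 9 DPA starchy endosperm to the highest other library on total reads (x axis, log2) and on unique reads (y axis, log2) for the 160 members with at least 10 unique reads at the peak and reads elsewhere. Broken lines mark 4-fold and the grey diagonal marks equality; 105 points rest on 50 or more unique reads, 55 on fewer, and the 2 points at 0 or just below are CA641270 and TC371564.

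The kind of identifier, which the rule did not use, also differed. Identifiers that begin with TC made up 120 of the 233 members (51.5%), 83.1% of the background and 42.1% of all sequences. Put by kind, the members were 1.47% of the 8169 TC sequences in the background and 6.82% of the 1657 others. The unique share did not separate the kinds, with medians of 26.2% and 25.5% for TC and other members. Some runs of similar identifiers, picked after the values were seen, held several members. Of the background sequences that begin with CA71, CA72 and CA64, 14 of 64 (21.9%), 5 of 18 (27.8%) and 7 of 55 (12.7%) were members. The 14 of CA71 had a median of 51.1 RPKM at the peak, 0.764 at 6 DPA and 4.51 at 14 DPA in starchy endosperm, and 0.0355, 1.64 and 0.975 RPKM in aleurone. The second library was 14 DPA starchy endosperm for 9 of them and 9 DPA aleurone for 5, and 12 of the 14 fell in the led class. CA712540 was the most abundant, with 2.07, 284 and 49.4 RPKM in starchy endosperm, while aleurone had 0, 0 and 3.78 RPKM. Of the 14, 8 had no unique read at the peak, and whether they stand for 14 separate transcripts was not tested. The members were shorter than the background, with a median of 700 bases (quartiles 560 and 948) against 835 (658 and 1118).

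The 5 other libraries were also compared with each other. The rule capped each of them relative to the peak but set no order among them. Sequences were counted as different when 1 library was at least 4 times the other on library totals, with lower counts set at 3 reads and at least 10 reads in the higher library. In starchy endosperm, 14 DPA was at least 4-fold above 6 DPA for 38 members (16.3%), against 6.68% of the background, and 6 DPA above 14 DPA for 7 members (3.00%), against 18.8%. The median log2 ratio of 14 to 6 DPA was 0.35 for the members and -0.61 for the background. With TMM scaling (which sets library factors from the bulk of sequences) these medians were 0.98 and 0.02. On that scale 52 members (22.3%) were at least 4-fold higher at 14 DPA, against 9.91% of the background, and 4 (1.72%) at 6 DPA, against 11.2%. The members, chosen on library totals, thus leaned to the later stage on both scales. The TMM values in these comparisons are over the same 233, of which 78 met the rule with TMM. They are thus no independent check of the lean. The background leaned to the earlier stage on library totals, and with TMM its median lay near 0.

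In aleurone, 9 DPA was at least 4-fold above 6 DPA for 24 members (10.3%), against 4.12% of the background, and the reverse held for 5 members (2.15%), against 2.66%. Likewise 9 DPA was above 14 DPA for 24 members (10.3%), against 6.59%, and 14 above 9 DPA for 11 (4.72%), against 11.3%. Both comparisons share the 9 DPA aleurone library. The 9 DPA library was the highest of the aleurone libraries for 106 members (45.5%) and for 32.9% of the background. The median log2 ratio of 9 to 6 DPA in aleurone was 0.86 for members and 0.12 for the background, and that of 14 to 9 DPA was -0.34 and 0.01. With TMM the first pair was 0.50 and -0.25 and the second 0.19 and 0.54. The members' median of 14 to 9 DPA thus changed sign, and in both comparisons the order of members and background stayed as it was. With TMM, 22 members (9.44%) were at least 4-fold higher at 14 than at 9 DPA, against 16.7% of the background, and 19 (8.15%) at 9 than at 14 DPA, against 3.91%.

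Between tissues at 6 DPA the members were close to the background: 45 (19.3%) were higher in starchy endosperm by 4-fold or more, against 17.7%, and 6 (2.58%) in aleurone, against 2.40%. At 14 DPA, 47 (20.2%) were higher in starchy endosperm, against 12.5%, and 2 (0.858%) in aleurone, against 8.83%. The median log2 ratio of starchy endosperm to aleurone at 14 DPA was 0.50 for the members and -0.33 for the background, and with TMM 1.09 and 0.26. The background was chosen for its level at 9 DPA alone and has no upper bound elsewhere, so the share it gives is a scale for these counts and not a test of them.

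**Figure D5:**
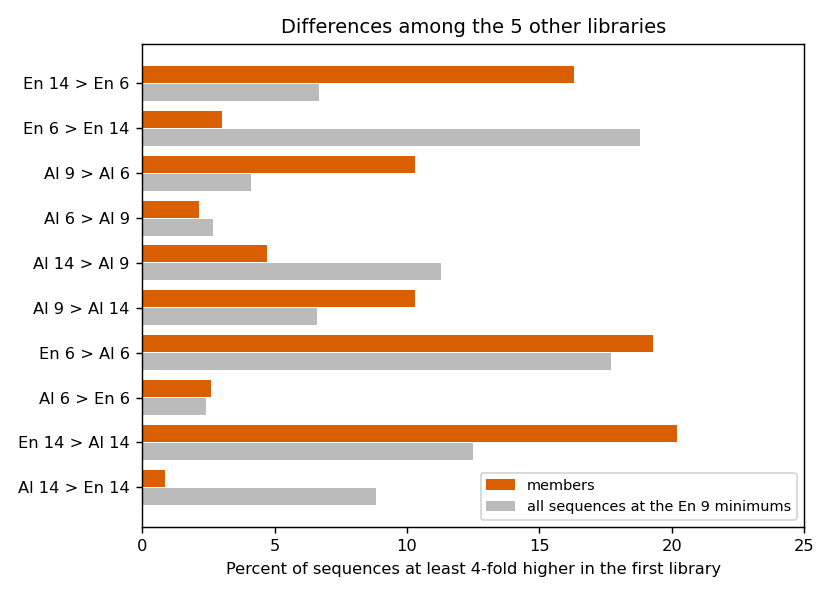
Percent of the 233 members and of the 9826 background sequences at least 4-fold higher in the first than in the second of 2 libraries, for comparisons among the 5 libraries other than 9 DPA starchy endosperm. Members exceed the background for En 14 over En 6 (16.3% and 6.68%) and lie below it for the reverse (3.00% and 18.8%); at 6 DPA the tissues differ for similar shares.

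The members just inside the minimum were CK158146, with 35.4 RPKM at the peak and 8.85 in 9 DPA aleurone, TC392042, with 27.7 RPKM and 6.90 in 14 DPA aleurone, and TC430782, with 47.7 RPKM and 11.9 in 14 DPA starchy endosperm. Just outside were TC398532, with 27.9 RPKM at the peak and 6.98 in 14 DPA starchy endosperm, TC402917, with 147.6 and 36.98 RPKM in the same libraries, and CD886606, with 50.02 RPKM at the peak and 12.5 in 6 DPA aleurone. All 6 lay between 3.99 and 4.01 times their highest other library. All 233 members had an exact 95% lower limit above 1 against each other library, and 144 had one of at least 4. These limits come from the counts that chose the members, so the first result was nearly fixed by the rule. They also leave out variation between libraries of the same kind. There were 69 members with under 100 reads at the peak. With the other libraries thinned by a random draw to the 4104682 reads of 9 DPA starchy endosperm, 208 of the 233 met the rule again. The peak counts that chose the members were unchanged in this, so much of the overlap was built in.

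The scaling between libraries changed membership more. RPKM divides by the library total, and TMM scaling lowered the ratio of the peak to 14 DPA starchy endosperm by 1.11 on the log2 scale, and to 6 DPA starchy endosperm, 6 DPA aleurone and 14 DPA aleurone by 0.49, 0.36 and 0.52. The ratio to 9 DPA aleurone moved by 0.01. With TMM, 78 of the 233 met the whole rule, and with median-ratio size factors 98. With TMM, 118 missed the fold only, 14 the level minimum of 20 RPKM only, and 23 both. Of members with 9 DPA aleurone second, 36 of 63 met it with TMM, and of those with 14 DPA starchy endosperm second, 20 of 96. BQ609570, TC391918, CJ812418, TC436791, CV065824, TC426973, TC409557 and CK168909 met the rule under both scalings. CA641270, CA667879, TC415795, TC371388, TC371564, CA600269, CD930718, CK197710 and CA712540 met it under neither, with ratios below 4. TC406214, with no read elsewhere, fell below the level minimum, at 15.2 RPKM with TMM and 16.7 with size factors.

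The same rule turned to each other library found 123 sequences in 6 DPA aleurone, 287 in 9 DPA aleurone, 1068 in 14 DPA aleurone, 540 in 6 DPA starchy endosperm and 400 in 14 DPA starchy endosperm. The 9 DPA starchy endosperm set held 1.56% of its library's reads, against 1.32%, 4.17%, 21.2%, 7.25% and 22.3% for these sets in their own libraries. The 287 sequences of 9 DPA aleurone were the nearest in kind of identifier, with 49.1% TC. Their second library was 6 DPA aleurone for 199 and 9 DPA starchy endosperm for 55. The other 4 sets had 68.3% to 78.7% TC identifiers. The median unique share in their own library was 24.0% for the 9 DPA aleurone set and 18.7% for the 14 DPA starchy endosperm set, both below the members' 26.0%, and 52.6% to 92.5% for the other 3. Both 9 DPA libraries were also the shallowest. At equal depth the counts of the 9 DPA sets were 234 in starchy endosperm and 293 in aleurone, and their identifiers were not recounted.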

How the data were processed

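Per the labels' protocols, cDNA was made with a MessageAmpII kit and a modified first primer, through which the poly(A) tail was removed, and libraries went through 15 cycles of PCR. The aligner, the treatment of shared reads and the release of the wheat sequences were not given in the sources used here. The deposited files give total and unique read counts per sequence, its length and RPKM. Recomputing the authors' RPKM from total counts, lengths and library totals gave the deposited values to within 0.0005. A transformed score that the authors deposited with the 6 DPA libraries was not used.

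The members, the gene lists and the rule for named sequences were chosen with earlier results of these data known. Named were the 6 most abundant members, the 4 with the largest ratios (other libraries' counts set at 3 or more reads), the most abundant for each second library, the longest and shortest, those with the highest and lowest unique share (the most abundant among ties) and those beside the minimum. No test was made, as each group has 1 library. Intervals for counts are exact Poisson, for shares exact Clopper-Pearson, and for ratios exact conditional binomial, all at 95%, with scipy 1.17.1. TMM factors came from edgeR 4.0.16 in R 4.3.3. The code of the selection was run on simulated counts with planted peaks. These counts had counting error only and no planted peak near 4-fold. The run thus checked the code and says nothing about the members. Lists of marker and pathway genes matched no identifier (0) and were not used.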

Additional observations from a re-analysis of the deposited data

Results flagged for a closer look

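While all members rose from 6 to 9 DPA and fell to 14 DPA in starchy endosperm, by the rule that chose them, some moved the other way in aleurone. The difference between the tissues was not tested, since each has 1 library per stage. In aleurone 5 members fell at least 4-fold from 6 to 9 DPA, namely CK197710, TC458748, CA645768, TC401444 and CA679868, from between 72 and 272 reads at 6 DPA to between 2 and 7 reads at 9 DPA. This was 2.15% of the members, against 2.66% of the background of 9826 sequences. From 9 to 14 DPA 11 members rose at least 4-fold in aleurone (4.72%), a smaller share than in the background (11.3%). The most abundant at the peak, CJ633358, had 5.31 RPKM from 17 reads at 9 DPA and 52.6 RPKM from 1404 reads at 14 DPA in aleurone, against 211 and 46.4 RPKM in starchy endosperm. These sequences were named after their values were seen. The count of 11 went to 22 (9.44%) with TMM scaling and to 20 (8.58%) with median-ratio size factors, against 16.7% and 14.1% of the background. The count of 5 went to 10 (4.29%) and 6 (2.58%), against 4.56% and 3.11%.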

How the results depend on the processing

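The number of members (233) was within 1.5 times of itself at equal depth (234, of which 208 were among the 233), with an RPKM minimum of 10 or none, with read minimums of 10 and 100, with any 1 of the 3 aleurone conditions left out, and with other libraries' reads set at 3 or more. In this last case TC398532 entered, whose deposited levels are rounded to just below the minimum. It was 140 on unique reads (80 among the 233), 78 with TMM, 98 with median-ratio size factors, 117 at a minimum of 50 RPKM, 442 at 3-fold, 66 at 8-fold, 542 without the condition on 6 DPA and 672 without that on 14 DPA starchy endosperm, and 144 with exact lower limits. Keeping members with at least 50 unique reads, chosen after seeing the data, left 106. The next values are over the 140, 78 and 98 sequences chosen anew on unique reads, with TMM and with size factors, in turn. Their share of reads was 1.48%, 0.464% and 0.548%, and those without reads elsewhere numbered 1, 1 and 1. Those higher at 14 than 6 DPA in starchy endosperm were 90 of 140, 57 of 78 and 74 of 98. The 195 given above for TMM was over all 233 members. The median ratio of 9 to 6 DPA (11.9) was 18.1 with TMM and 20.05 with size factors, over the fewer members left, and that of 9 to 14 DPA (8.31) was 6.48 on unique reads and 9.74 with TMM. By the same rule 9 DPA aleurone had 170 sequences on unique reads and 153 with TMM, and 14 DPA starchy endosperm 819 with TMM and 798 with size factors. A changed minimum, a condition left out or an exact limit tightens or loosens the rule itself. The direction of those changes was thus fixed. For the scalings and unique reads the cause of the changes was not tested. Low counts limit the comparison with aleurone, where 43, 48 and 19 members had at most 3 reads at 6, 9 and 14 DPA.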
